A study of Mus musculus with 8 samples.

Results

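The genes described here are the variable (V) segments of the mouse immunoglobulin loci: every gene whose symbol starts with Ighv, Igkv or Iglv followed by a digit. They were 348 of the 52325 genes in the deposited table, 185 of the heavy chain (Ighv, chromosome 12), 160 of the kappa light chain (Igkv, chromosome 6) and 3 of the lambda light chain (Iglv, chromosome 16). The annotation (GENCODE M21, mouse genome GRCm38) lists 216 of them as V genes, 130 as V pseudogenes and 2 with the label IG_LV gene, and their symbols name 39 families. They were measured by bulk RNA-seq in endometrium, the inner lining of the uterus, cut by laser from frozen sections of 4 WT and 4 Thra1PV/+ female mice, all taken in metestrus. Thra1PV/+ mice carry 1 mutated copy of Thra that makes a dominant negative thyroid hormone receptor α1 in the whole animal, beside 1 normal copy, and WT mice carry none. The labels name no treatment, and the age of these 8 animals is not given in the sources used here. The question put to the data was how many V segments each library used, how far a few segments dominated, and how both stood beside the total level.

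A B cell builds its antibody genes by cutting out DNA so that 1 V segment is joined to a J segment (with a D segment between them in the heavy chain), and the joined exon is then spliced to a constant region such as Igha or Igkc. Descendants of that cell as a rule keep the same V segment, so a tissue filled by a few plasma cell clones shows a few V segments and a tissue filled by many clones shows many. Plasma cells, the antibody-secreting end stage, hold very large amounts of this RNA, and in mucosal tissues such as the uterus many of them make IgA, which is joined by the J chain (Jchain) and carried across the epithelium by the receptor Pigr. The counts used here name the V segment but not the junction, so they describe segment use and not clones.

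Library totals were alike, between 48791602 and 59818887 counts, and the libraries of a genotype correlated at r = 0.901 to 0.974 on log2 CPM (counts scaled to a common library size after TMM normalization). WT library 1 stood apart: its summed level of 7 smooth muscle markers was 8830 CPM against 128 to 845 CPM in the other 7 libraries, its 7 blood cell markers summed to 179 CPM against 14.7 to 57.5, and Ccl21a, a chemokine of lymph node and lymphatic vessels, was at 68.3 CPM against 0 to 2.56. The 9 endometrial markers summed to between 1530 and 2840 CPM in all 8 libraries, most of it from the epithelial keratins Krt8 and Krt18, Esr1 and Vim. Markers of the stroma within this list were uneven. Vim was at 423, 66.1, 155 and 131 CPM in Thra1PV/+ libraries 1 to 4 and at 365, 560, 230 and 177 CPM in WT libraries 1 to 4, and the uterine patterning gene Hoxa10 was at 169, 11.5, 17.2 and 35.9 CPM against 534, 315, 24.3 and 67.4 CPM, with Hoxa11 at 10.1 CPM in Thra1PV/+ library 2 and 274 CPM in WT library 2. All 3 were thus lowest in Thra1PV/+ library 2 and high in WT library 2, the libraries that lie away from the others in V segments. The 8 markers of stratified squamous epithelium summed to 2220 to 3650 CPM in the Thra1PV/+ libraries and to 12.9 to 42.6 CPM in the WT libraries. Of the 8, 5 were called higher (Krt5, Krt14, Krt15, Ivl and Trp63), against 0.99% of all tested genes called in either direction. The call of Krt14 (edgeR adjusted p = 0.0928) was lost without any 1 Thra1PV/+ library, WT library 2 or WT library 4 (0.133 to 0.23), and those of Krt5 and Krt15 without WT library 4 (0.115 for both), while Ivl and Trp63 were called in each of these fits. The part of these differences in V segment use was not tested. Results below are given with each library's value, since WT library 2 and Thra1PV/+ library 2 lie away from the other libraries of their genotype.

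The V segments that the results turn on are shown as the last bases of their transcript, taken from the GENCODE M21 transcript sequences, all within the last of 2 coding exons and printed on the coding strand. Igkv1-110 and Igkv1-117 are shown because 1 or the other led 5 of the 8 libraries and because they are near copies of each other. Capitals mark the 10 of 300 positions at which they differ (96.7% identity), which is all that a read from these bases has to tell them apart. They lie at chr6:68270968-68271267 and chr6:68121528-68121827, both on the plus strand.
Igkv1-110: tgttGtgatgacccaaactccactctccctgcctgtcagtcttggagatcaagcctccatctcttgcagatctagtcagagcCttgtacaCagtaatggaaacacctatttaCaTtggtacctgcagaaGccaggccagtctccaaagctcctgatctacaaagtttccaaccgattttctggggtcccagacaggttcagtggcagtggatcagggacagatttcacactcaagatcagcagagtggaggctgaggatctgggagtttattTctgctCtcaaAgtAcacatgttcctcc
Igkv1-117: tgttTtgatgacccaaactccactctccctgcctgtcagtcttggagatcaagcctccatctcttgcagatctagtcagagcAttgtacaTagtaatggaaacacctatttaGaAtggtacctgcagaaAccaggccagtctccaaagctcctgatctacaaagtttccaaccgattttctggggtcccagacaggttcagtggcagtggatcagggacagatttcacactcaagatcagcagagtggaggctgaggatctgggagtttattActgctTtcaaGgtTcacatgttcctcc

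The other segments are shown with capitals on the motif TATTNCTG, which in these genes spells the tyrosine, the tyrosine or phenylalanine and the start of the conserved cysteine that close the framework before the third hypervariable loop. Iglv1 (chr16:19085017-19085316, minus strand) led 2 Thra1PV/+ libraries, Igkv6-15 (chr6:70406469-70406766, minus strand) was among the 10 leading segments of the 4 libraries with the most V counts, and Igkv3-2 (chr6:70698768-70699067, plus strand) led WT library 4. Ighv1-26 (chr12:114788372-114788671, minus strand) was the heavy chain segment with the largest mean level. Ighv3-6 (chr12:114288152-114288451, minus strand) and Igkv4-72 (chr6:69226854-69227153, minus strand) had the smallest p between genotypes.
Iglv1: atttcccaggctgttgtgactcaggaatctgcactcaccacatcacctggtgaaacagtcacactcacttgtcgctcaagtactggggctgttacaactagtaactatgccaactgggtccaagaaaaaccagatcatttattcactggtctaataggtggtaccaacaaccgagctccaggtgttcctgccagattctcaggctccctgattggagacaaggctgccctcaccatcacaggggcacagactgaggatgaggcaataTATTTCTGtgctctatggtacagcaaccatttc
Igkv6-15: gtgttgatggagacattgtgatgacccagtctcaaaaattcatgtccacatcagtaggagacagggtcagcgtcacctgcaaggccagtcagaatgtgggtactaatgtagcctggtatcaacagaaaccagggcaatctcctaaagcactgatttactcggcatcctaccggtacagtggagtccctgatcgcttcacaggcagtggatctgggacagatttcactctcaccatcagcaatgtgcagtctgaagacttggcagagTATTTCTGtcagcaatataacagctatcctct
Igkv3-2: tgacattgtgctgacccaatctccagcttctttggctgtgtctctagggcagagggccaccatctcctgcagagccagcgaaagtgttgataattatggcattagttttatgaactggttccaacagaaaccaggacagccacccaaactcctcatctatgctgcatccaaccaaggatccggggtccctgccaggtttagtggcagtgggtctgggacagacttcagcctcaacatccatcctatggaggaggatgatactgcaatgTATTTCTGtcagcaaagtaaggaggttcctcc
Ighv1-26: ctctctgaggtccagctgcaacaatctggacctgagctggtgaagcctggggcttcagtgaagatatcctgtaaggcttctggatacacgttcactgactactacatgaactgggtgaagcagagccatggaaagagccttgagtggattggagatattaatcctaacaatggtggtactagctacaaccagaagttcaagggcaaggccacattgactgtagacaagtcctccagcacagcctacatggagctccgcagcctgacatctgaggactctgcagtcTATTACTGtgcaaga
Ighv3-6: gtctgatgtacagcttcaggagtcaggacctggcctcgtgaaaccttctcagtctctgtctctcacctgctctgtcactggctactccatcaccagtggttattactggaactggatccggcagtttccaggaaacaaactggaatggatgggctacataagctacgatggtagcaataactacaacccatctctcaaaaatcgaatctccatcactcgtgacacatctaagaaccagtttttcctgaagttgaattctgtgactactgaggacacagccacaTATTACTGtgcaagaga
Igkv4-72: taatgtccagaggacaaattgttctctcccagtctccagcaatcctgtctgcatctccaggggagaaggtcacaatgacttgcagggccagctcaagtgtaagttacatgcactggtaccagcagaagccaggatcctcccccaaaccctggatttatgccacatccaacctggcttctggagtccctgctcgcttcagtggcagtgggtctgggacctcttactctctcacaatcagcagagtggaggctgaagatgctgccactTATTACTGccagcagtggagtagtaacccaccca

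Searched in the last 60 bases of each transcript, TATTNCTG was found on the coding strand in 170 of the 216 V genes (78.7%), in 59 of the 130 V pseudogenes (45.4%) and in 927 of the 141079 other transcripts of at least 60 bases (0.657%). On the opposite strand it was found in 5 V genes, 0 V pseudogenes and 1023 other transcripts. Because V segments are near copies, reads had to be divided between them by estimation. Of the runs of 31 bases in a member's transcripts, the median share found in no other member was 53.6% over the 205 members with a count, and 89 of these were under 50%. Ighv1-62-2 was the extreme among the segments named here, with 27 of 348 runs to itself and its last 280 bases identical to those of Ighv1-71. Igkv1-110 and Igkv1-117 had 36.4% and 37.4% of their runs to themselves, Ighv1-26 25.2%, Igkv6-15 65.3% and Ighv3-6 84.9%. The deposited values show the division: 68.4% of the V segment values above 0 were not whole in Thra1PV/+ library 1, and 14.8% in WT library 3. Values for 1 segment are therefore less certain than sums over a family or locus.

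The total V segment level was higher in most Thra1PV/+ libraries, but the genotypes overlapped. The V segments summed to 314, 17.7, 280 and 194 CPM in Thra1PV/+ libraries 1 to 4 and to 4.33, 66.3, 1.71 and 11 CPM in WT libraries 1 to 4. WT library 2 lay above Thra1PV/+ library 2, and the other 3 WT libraries lay below all Thra1PV/+ libraries. On a log2 scale the mean was 7.04 ± 1.95 (SD, n = 4) in Thra1PV/+ and 3.10 ± 2.25 (SD, n = 4) in WT, a difference of 3.94, and it ran from 3.17 without WT library 3 to 4.93 without WT library 2 when a library was left out. As counts the totals were 17124, 874, 13710 and 11065 in the Thra1PV/+ libraries and 227, 3673, 86 and 524 in the WT libraries, so V segment use rested on fewer than 1000 counts in 4 of the 8. The share of all counts was 0.0351% (95% Wilson interval 0.0346 to 0.0356) in Thra1PV/+ library 1 and 0.000144% (0.000116 to 0.000178) in WT library 3, the highest and the lowest. These intervals cover counting error only, since copies made by PCR were not told apart. In bulk tissue, fewer plasma cells and less RNA per cell cannot be told apart.

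**Figure D1:**
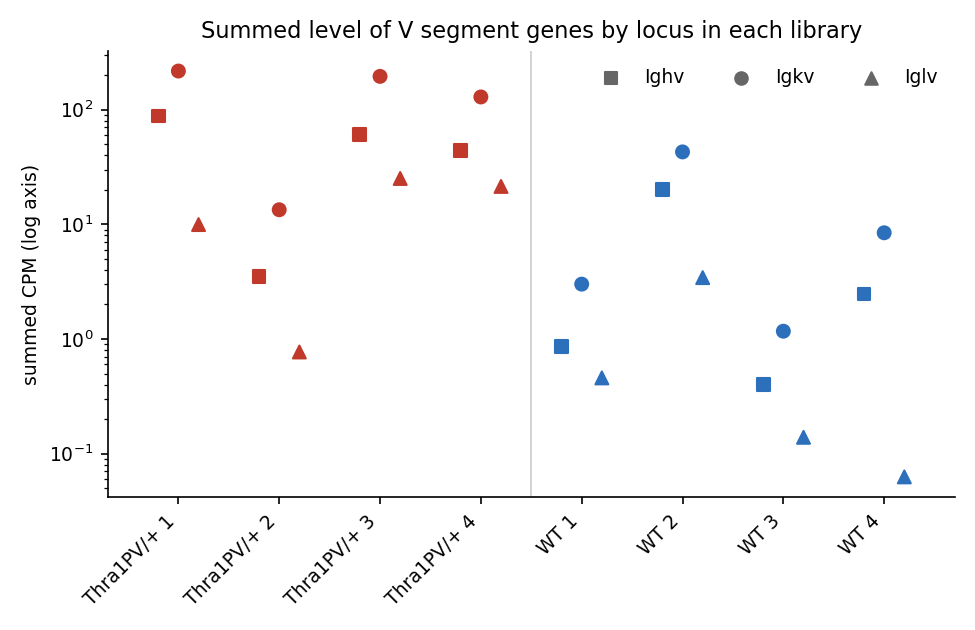
Summed level of the Ighv (squares), Igkv (circles) and Iglv (triangles) genes in CPM on a log axis, in each of the 4 Thra1PV/+ (red) and 4 WT (blue) libraries. Igkv was the highest locus and Iglv the lowest in every library, and WT 2 lay above Thra1PV/+ 2 at each locus.

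The 3 loci kept their order in all 8 libraries. Igkv held 66.3% to 75.7% of the V counts in the Thra1PV/+ libraries and 64.6% to 76.9% in the WT libraries, and Ighv held 19.9% to 28.0% and 19.8% to 30.3%. The ranges overlap almost fully. Iglv, the smallest locus, ranged more widely, from 3.17% to 11% in Thra1PV/+ and from 0.573% (3 counts, WT library 4) to 10.6% in WT. Nearly all of it came from Iglv1, which held 95.4% to 97.9% of the Iglv counts in Thra1PV/+. In WT it held 57.1% to 100%, with 57.1% resting on 4 of 7 counts. Iglv2, whose last 280 bases are 97.5% identical to those of Iglv1, had 13, 0, 21 and 42 counts in Thra1PV/+ and 3, 1, 0 and 0 in WT.

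Most V pseudogenes had 0 counts, while most V genes had a count in some library. Of the 348 members, 143 had 0 counts in all 8 libraries, and 112 of these were pseudogenes; a count of 0 allows up to 3 counts. Of the 205 with at least 1 count, 187 were annotated V genes. Pseudogenes together held 0.0934% to 0.306% of the V counts in Thra1PV/+ and 0% to 2.2% in WT, where 2.2% was 5 of 227 counts. At least 1 count was found in a Thra1PV/+ library for 195 members and in a WT library for 146, of which 136 were shared. The 10 members seen in WT libraries alone had at most 31 counts in a library, and 59 were seen in Thra1PV/+ libraries alone. Only 4 members had a count in all 8 libraries, 73 in all Thra1PV/+ libraries and 5 in all WT libraries.

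The number of segments in use followed the V total. With at least 10 counts as the threshold, 115, 29, 119 and 113 segments were used in Thra1PV/+ libraries 1 to 4 and 8, 83, 0 and 11 in WT libraries 1 to 4. The mean was 94.0 ± 43.4 (SD, n = 4) against 25.5 ± 38.6 (SD, n = 4), a difference of 68.5, and WT library 2 again exceeded Thra1PV/+ library 2. With 1 CPM as the threshold the difference was 38.5. With at least 1 count the numbers were 158, 86, 163 and 150 against 35, 137, 27 and 40.

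To make read numbers equal, each library was thinned to 86 V reads, the total of WT library 3. The number of cells or molecules behind the reads is not known and was not made equal. The expected number of segments among the 86 reads was computed exactly. It was 43.4, 42.3, 44.1 and 44.2 in the Thra1PV/+ libraries and 26.4, 47.1, 27.0 and 25.7 in the WT libraries. The 4 Thra1PV/+ libraries were nearly equal, though Thra1PV/+ library 2 had far fewer V counts than the other 3. WT library 2 held the highest value of the 8, and WT libraries 1, 3 and 4 the lowest. The mean difference was 12.0 segments, against 79.5 for segments with at least 1 count before thinning. At 874 reads, a depth only 5 libraries reach, the expected numbers were 107, 86, 114 and 114 in Thra1PV/+ and 110 in WT library 2. The difference was then -4.3, on the WT side, but with WT libraries 1, 3 and 4 gone it set Thra1PV/+ against WT library 2 alone. At this depth WT library 2 lay above Thra1PV/+ libraries 1 and 2 and below libraries 3 and 4. At 86 reads it was above all Thra1PV/+ libraries.

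**Figure D2:**
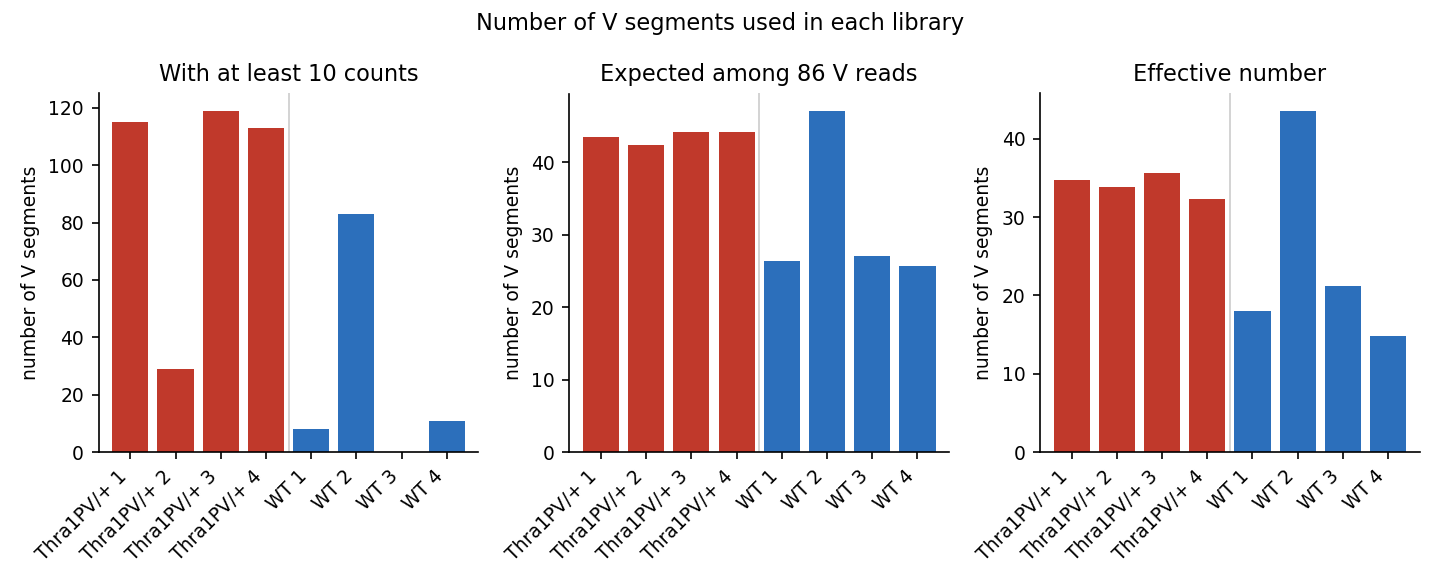
Number of V segments in each library, counted in 3 ways: with at least 10 counts, expected among 86 V reads, and as the effective number (unbiased inverse Simpson index). Red bars are Thra1PV/+ and blue bars WT libraries; at equal depth the Thra1PV/+ libraries stand at 42.3 to 44.2 segments, between WT 2 at 47.1 and the other WT libraries at 25.7 to 27.0.

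Evenness of use placed the libraries in the same way. The effective number of segments (inverse Simpson index, the number of equally used segments that would give the same evenness) was 34.8, 32.7, 35.6 and 32.2 in Thra1PV/+ and 16.7, 43.1, 17.2 and 14.4 in WT. The unbiased form, which corrects for the number of reads, gave 33.9 for Thra1PV/+ library 2 and 18.0, 21.2 and 14.8 for WT libraries 1, 3 and 4. The Thra1PV/+ libraries lay within 32.3 to 35.6 by that form, and the WT libraries both above and below them. Thra1PV/+ library 2, with 874 V counts, and WT library 4, with 524, had totals of the same order but effective numbers of 33.9 and 14.8. They were not alike in constant region RNA, with 7442 Igkc counts in Thra1PV/+ library 2 and 1611 in WT library 4. The means were 33.8 ± 1.63 (SD, n = 4) and 22.9 ± 13.6 (SD, n = 4) before that correction, a difference of 10.9, and over families in place of segments the difference was 2.56. Within Ighv the effective number was 19.8 to 34.1 against 6.45 to 25.7, and within Igkv 19.5 to 26.3 against 8.98 to 24.1.

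The share of the leading segment overlapped between the genotypes, and the libraries lay further apart over the 10 leading segments. The leading segment took 9.34%, 10.9%, 8.78% and 10.6% of V counts in Thra1PV/+ and 12.3%, 7.62%, 10.5% and 13.7% in WT. In WT library 3 that was 9 counts (Wilson interval 5.6% to 18.7%), and in WT library 4 it was 72 counts (11.1% to 17.0%). The 10 leading segments took 43.5%, 42.0%, 43.5% and 46.2% in Thra1PV/+, and 67.4%, 37.3%, 66.3% and 72.3% in WT. Again WT library 2 lay beyond the Thra1PV/+ libraries on the even side, and the other 3 WT libraries on the uneven side. A share of 50% of the V counts was reached with 13 or 14 segments in each Thra1PV/+ library, with 17 in WT library 2 and with 5 to 7 in the other WT libraries. No segment held more than 13.7% of a library.

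**Figure D3:**
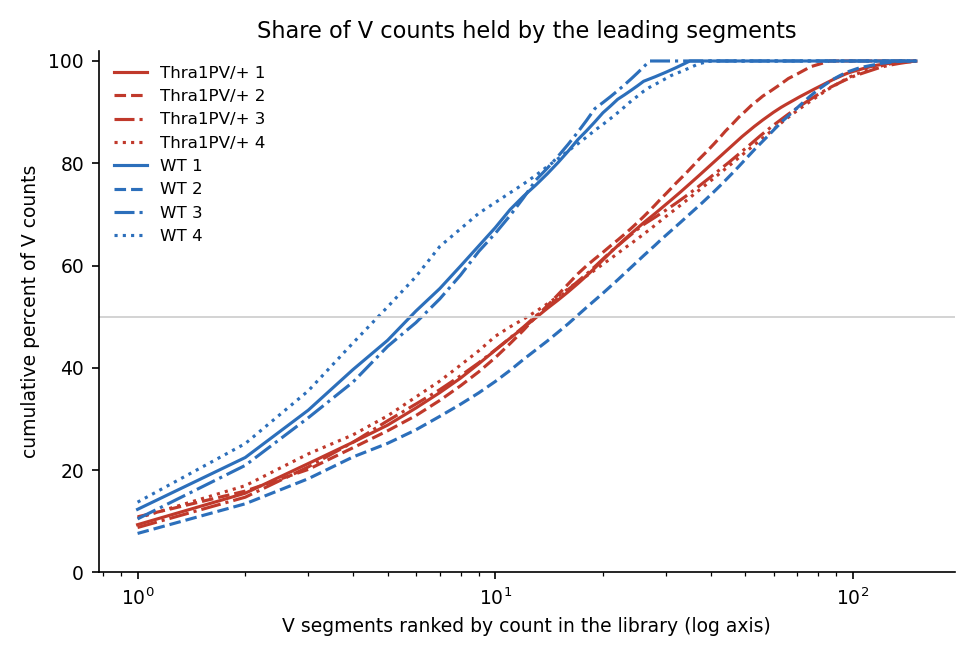
Cumulative percent of V counts against the rank of the segment (log axis), 1 line per library, red for Thra1PV/+ and blue for WT, with a grey line at 50%. The Thra1PV/+ lines run together and reach 50% at 13 or 14 segments, WT 2 lies below them at 17, and WT 1, 3 and 4 rise earliest, at 5 to 7.

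The same segments led in several animals. Igkv1-110, Igkv1-117 or Iglv1 was the leader in 7 of the 8 libraries: Igkv1-110 in Thra1PV/+ libraries 1 and 2 and, tied at 9 counts with Igkv4-74, in WT library 3, Iglv1 in Thra1PV/+ libraries 3 and 4, and Igkv1-117 in WT libraries 1 and 2. Igkv3-2 led WT library 4. The transcripts of V segments are close in length, and by TPM, which divides by length, the same segments led. The top 10 lists of the 8 libraries together named 43 segments, 29 of them in 1 list alone. Igkv1-110 and Iglv1 were in 7 lists each, and Igkv1-117, Igkv6-15 and Igkv10-96 in 5.

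Igkv1-110 had 1599, 95, 660 and 701 counts in Thra1PV/+ libraries 1 to 4 and 9, 213, 9 and 2 in WT libraries 1 to 4. That was 4.81% to 10.9% of V counts in Thra1PV/+ and 0.382% to 10.5% in WT. The log2 fold change was 3.74 (SE 1.41, edgeR's quasi-likelihood test, adjusted p = 0.434), and the counts of WT library 2 lay above those of Thra1PV/+ library 2. Its near copy Igkv1-117 had 401, 12, 813 and 687 counts against 28, 280, 1 and 49. It took 1.37% to 6.21% of V counts in Thra1PV/+ and 1.16% to 12.3% in WT. The order of the pair thus differed between animals of 1 genotype, with Igkv1-110 ahead in Thra1PV/+ libraries 1, 2 and 4 and Igkv1-117 ahead in library 3.

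Iglv1 had 517, 37, 1204 and 1176 counts against 21, 180, 4 and 3 (log2 fold change 3.86, SE 1.44, edgeR adjusted p = 0.43). As a share of V counts it was highest in Thra1PV/+ library 4 at 10.6% and lowest in WT library 4 at 0.573%. Igkv6-15 had 992, 29, 811 and 311 counts against 6, 98, 0 and 0, and Igkv10-96 had 270, 25, 576 and 408 against 5, 156, 0 and 54. Igkv3-2, the leader of WT library 4 with 72 of its 524 counts, had 24, 0, 37 and 117 counts in the Thra1PV/+ libraries, at most 1.06% of their V counts. Its log2 fold change was 0.31 (SE 1.47, edgeR adjusted p = 0.974).

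The leader of Ighv varied from library to library. Ighv1-64 led Ighv in Thra1PV/+ library 1, Ighv3-6 in library 2 and Ighv1-26 in libraries 3 and 4, and in WT libraries 1 to 4 it was Ighv1-12, Ighv1-18, a tie of Ighv1-55, Ighv1-74 and Ighv1-82, and Ighv1-62-2. Ighv1-26 had 339, 5, 342 and 204 counts against 0, 81, 2 and 9. Ighv1-64 had 574, 8, 56 and 47 against 1, 24, 0 and 0, so its lead rested on Thra1PV/+ library 1. Ighv1-34, with 156, 8, 243 and 96 counts against 0, 15, 0 and 7, and Ighv1-53, with 353, 0, 95 and 45 against 0, 20, 0 and 0, were the other heavy chain segments of highest mean level. In WT the lead rested on few counts in 3 libraries: Ighv1-12 had 10 counts in WT library 1, the 3 tied segments had 4 each in WT library 3 and Ighv1-62-2 had 16 in WT library 4. Ighv1-18 led WT library 2 with 97 counts, against 17, 0, 47 and 32 in the Thra1PV/+ libraries, and its log2 fold change was 0.02 (SE 1.68, edgeR adjusted p = 0.998).

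**Figure D4:**
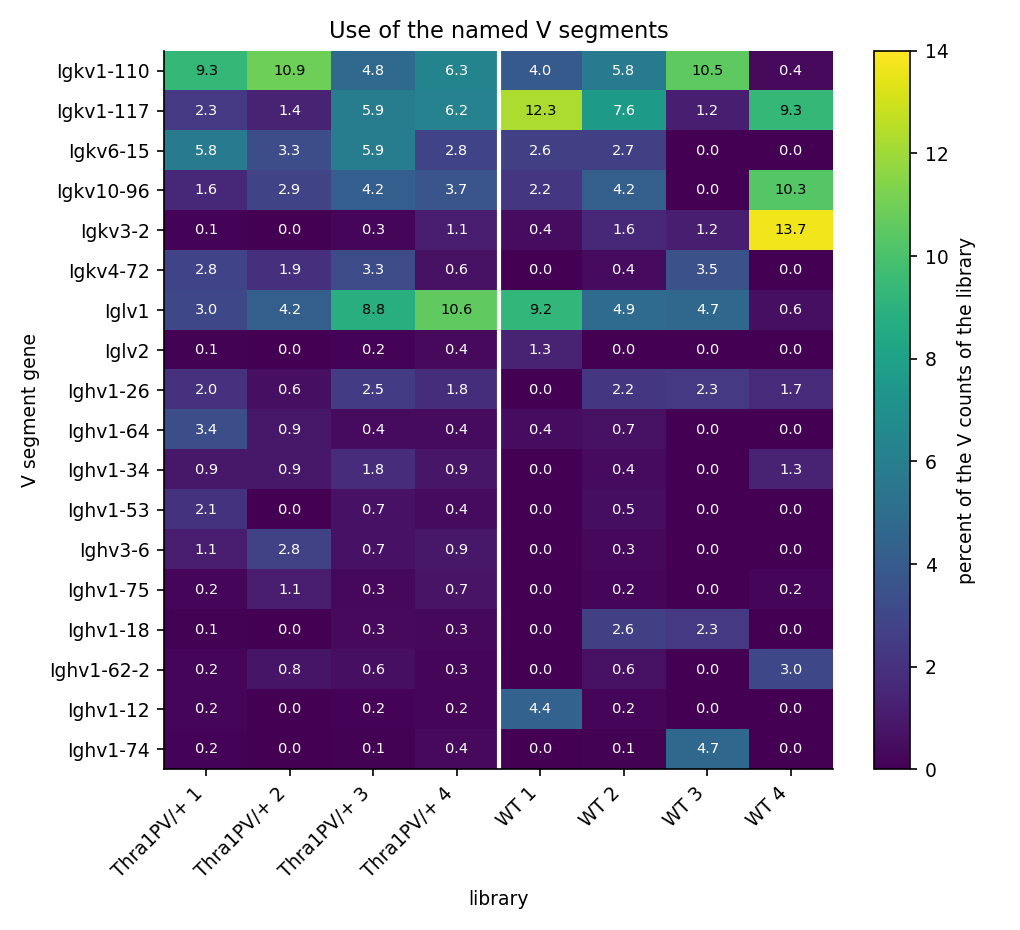
Percent of the V counts of each library (columns) held by each of the 18 named V segments (rows), with the value printed in the cell and the colour from 0 to 14%. Iglv1 holds 4% or more in most libraries of either genotype, and Igkv1-110 in every Thra1PV/+ library and in WT 2 and WT 3. Igkv3-2 is high in WT 4 alone and Ighv1-12 and Ighv1-74 each in a single WT library.

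By family, Ighv1, which has 93 of the 185 Ighv members, held 54.3% to 69.7% of Ighv counts in Thra1PV/+ and 60% to 95% in WT, where 95% was 19 of 20 counts. Among kappa families Igkv6 was the largest in Thra1PV/+ library 1 at 24.7% of Igkv counts, Igkv4 in library 2 at 25.2%, and Igkv1 in libraries 3 and 4 at 17.8% and 20.9%. In WT it was Igkv4 in libraries 1 and 3 at 26.6% and 33.9%, Igkv1 in library 2 at 21.5% and Igkv3 in library 4 at 21.1%. Families Ighv16, Igkv7, Igkv18 and Igkv20 had 0 counts in all 8 libraries.

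Segment use was compared between pairs of libraries with the Morisita-Horn index, which is 1 for the same shares and 0 for no shared segment. It ranged from 0.629 to 0.846 within Thra1PV/+, from 0.0749 to 0.602 within WT and from 0.19 to 0.807 between genotypes. Each pair within WT held a library of 86 to 524 V counts, and sampling error at so few counts lowers the index. Among the 4 libraries with the most V counts (Thra1PV/+ 1, 3 and 4 and WT 2) the 3 pairs across genotypes gave 0.641 to 0.807 and the 3 pairs within Thra1PV/+ 0.629 to 0.846, so these ranges overlapped. In these 4 libraries 103 segments had at least 1 count in each and 56 reached 1% of V counts in at least 1. Of the 56, 8 reached 1% in all 4 (Igkv1-110, Igkv1-117, Igkv2-137, Igkv3-12, Igkv6-15, Igkv10-96, Iglv1 and Ighv1-26), and in 19 the highest share was over 10 times the lowest.

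Some segments were abundant in 1 or 2 animals and absent in others. They were picked for this after their values were seen. Igkv6-32 had 1054, 0, 350 and 45 counts in Thra1PV/+ libraries 1 to 4 and 0, 3, 0 and 0 in WT, the highest count of a member that the filter on low counts left out. Igkv13-84 had 7, 2, 226 and 346 counts against 0 in all 4 WT libraries. Igkv19-93 had 214, 14, 386 and 0 against 2, 0, 0 and 0. Each was thus high in 2 Thra1PV/+ libraries and low or at 0 in another of that genotype.

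Segments across the whole kappa locus were in use. In the mouse, a kappa V segment on the same strand as Igkc joins by deletion of the DNA between, and a segment on the opposite strand by inversion. The 85 Igkv genes on the opposite strand held 62.7%, 62.4%, 59.3% and 53.5% of Igkv counts in Thra1PV/+ and 53.2%, 52.7%, 59.3% and 43.7% in WT. The ranges overlap, from 53.5% to 59.3%. Igkv3-2 lies 28 kb from Igkc, Igkv6-15 320 kb, Igkv4-72 1500 kb, Igkv1-110 2456 kb and Igkv1-117 2605 kb.

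For single segments the genotypes were compared over all genes with edgeR's quasi-likelihood test, a call needing a fold change of at least 2 and an adjusted p of at most 0.1. The filter on low counts kept 68 of the 348 members (25 Ighv, 42 Igkv and Iglv1, with 0 pseudogenes), and 0 were called, against 180 of 18174 genes (0.99%) overall. At an unadjusted p under 0.05, 25 members were higher and 0 lower, against 5.05% of all tested genes higher. DESeq2 called 35 of the 139 members to which it gave an adjusted p, each of them higher, against 2.57% of all genes with an adjusted p, and 16 of the 35 were among the 68. The log2 fold changes of the 68 ran from 0.02 to 5.82, with a median of 2.94 against -0.05 over all tested genes and standard errors of 1.07 to 1.92. A member could pass the filter through its level in Thra1PV/+ alone, so the direction of these 68 carries no weight by itself.

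The filter on low counts asks for a level in 4 libraries, so members with few counts in Thra1PV/+ library 2 needed a level in a WT library to pass. Of all 205 members with a count, WT library 2 lay above Thra1PV/+ library 2 in CPM in 120 and below it in 33, and 52 were at 0 in both. In 5 of the 68 tested members every Thra1PV/+ library lay above every WT library, which held for 3.55% of all tested genes. A member that passed the filter through Thra1PV/+ alone was already high there, so this count carries no weight by itself. Without WT library 2, 4 of 82 tested members were called, all higher (Igkv1-110, Igkv17-127, Ighv1-75 and Ighv3-6), against 0.74% of all genes tested in that fit. Without Thra1PV/+ library 2 it was 4 of 90 (Igkv6-32, Ighv2-2, Ighv5-4 and Ighv5-6), all higher, against 0.592% of all genes. Without Thra1PV/+ library 4, Igkv19-93 was called, 1 of 73 against 0.653%, and without any other single library 0 were called. In these fits the filter was applied anew and asked for a level in 1 library fewer. Members could then pass through Thra1PV/+ libraries alone, so their number and direction carry no weight by themselves. Why WT library 2 and Thra1PV/+ library 2 lie apart was not tested.

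The 3 members with the smallest p were among the 5 without overlap, and both traits rest on the same values. Ighv3-6 was at 3.51, 0.487, 1.88 and 1.75 CPM in Thra1PV/+ libraries 1 to 4 and at 0, 0.199, 0 and 0 CPM in WT, where the value of WT library 2 was 11 counts. Its log2 fold change was 5.15 (SE 1.31, edgeR adjusted p = 0.206). Igkv4-72 was at 8.87, 0.345, 9.19 and 1.24 CPM against 0, 0.271, 0.0597 and 0 CPM, with a log2 fold change of 5.82 (SE 1.52, edgeR adjusted p = 0.222). Ighv1-75 was at 0.679, 0.203, 0.817 and 1.42 CPM against 0, 0.163, 0 and 0.0209 CPM, with a log2 fold change of 3.98 (SE 1.12, edgeR adjusted p = 0.27). In all 3 the gap between Thra1PV/+ library 2 and WT library 2 was a small part of the range.

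The constant regions, which sit on the same transcripts, were read beside the V segments. Igkc was at 390, 151, 918 and 559 CPM in Thra1PV/+ and 20.4, 161, 7.68 and 33.7 CPM in WT, so WT library 2 lay just above Thra1PV/+ library 2 here too (log2 fold change 3.18, SE 0.97, edgeR adjusted p = 0.325). Igha, the constant region of IgA, was at 426, 135, 972 and 683 CPM against 21.7, 196, 9.09 and 38.2 CPM (3.07, SE 1.01, edgeR adjusted p = 0.359), and Jchain at 113, 37.3, 248 and 143 against 5.59, 47.8, 2.63 and 9.10 CPM (3.06, SE 0.97, edgeR adjusted p = 0.342). Of the 9 tested genes of this list 0 were called and 7 had an unadjusted p under 0.05, all higher, against 5.05% of all tested genes: Igkc, Igha, Jchain, Ighg2b and the lambda constants Iglc1, Iglc2 and Iglc3. Ighm, the IgM constant region, was at 2.68 to 13.6 CPM in Thra1PV/+ and 6.90 to 17.0 CPM in WT (log2 fold change -0.63, SE 0.51, edgeR adjusted p = 0.756), and Ighg2c had a log2 fold change of -0.78 (SE 1.07). DESeq2 called 6 genes of this list, against 2.57% of all genes called higher, and edgeR 3 without WT library 2, against 0.74%.

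Igha made up 96.5%, 97.0%, 99.0% and 98.5% of heavy constant counts in Thra1PV/+ and 53.7%, 92.5%, 55.9% and 82.3% in WT, without overlap. This percent depends on the Igha level, which did overlap, with 135 CPM in Thra1PV/+ library 2 and 196 CPM in WT library 2. The V totals and the measures of V segment use all overlapped. The 3 WT libraries with the least IgA share were libraries 1, 3 and 4, which are also those with the fewest effective V segments. The number of V counts per constant count was not fixed. Per 100 Igkc counts there were 55.5, 8.9, 21.2 and 23.0 Igkv counts in Thra1PV/+ and 14.8, 26.6, 15.3 and 25.0 in WT. Per 100 heavy constant counts there were 19.9, 2.53, 6.13 and 6.32 Ighv counts against 2.12, 9.49, 2.45 and 5.33. Both ratios were highest in Thra1PV/+ library 1, which led in V total but lay below Thra1PV/+ libraries 3 and 4 in Igkc and Igha. Thra1PV/+ library 2 had the lowest kappa ratio, so it lay further from the other Thra1PV/+ libraries in V segments than in Igkc.

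**Figure D5:**
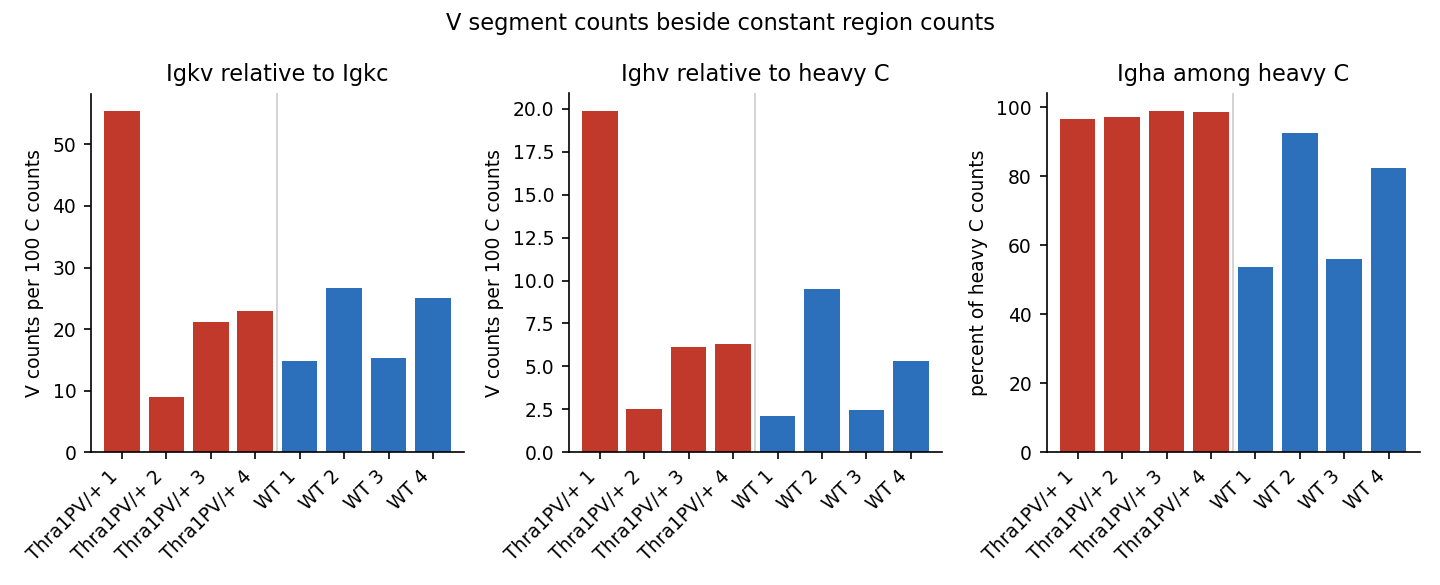
Igkv counts per 100 Igkc counts, Ighv counts per 100 heavy constant region counts, and the percent of heavy constant counts that were Igha, in each Thra1PV/+ (red) and WT (blue) library. The ratios are highest in Thra1PV/+ 1 at 55.5 and 19.9, and the Igha percent is 96.5 to 99.0 in Thra1PV/+ and 53.7 to 92.5 in WT.

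Of 25 other genes of B and plasma cells 20 were tested. The edgeR test called 1, against 0.99% of all tested genes, and DESeq2 called 3, against 2.57% of all genes called higher. An unadjusted p under 0.05 was found for 7, all higher, against 5.05% of all tested genes. The median log2 fold change was 0.55 against -0.05 over all tested genes. The called gene, Sdc1, is a plasma cell surface proteoglycan that epithelial cells also make, and it stood at 334 to 569 CPM in Thra1PV/+ and 88.2 to 231 CPM in WT (log2 fold change 1.60, SE 0.32, edgeR adjusted p = 0.0944). The call of Sdc1 was lost when any library other than WT library 4 was left out, with an edgeR adjusted p of 0.13 to 0.284 over those 7 fits. Cd79a, a subunit of the B cell receptor complex, had a log2 fold change of 2.58 (SE 0.81, edgeR adjusted p = 0.341) and Pou2af1, a coactivator of immunoglobulin gene transcription, 2.55 (SE 0.87, edgeR adjusted p = 0.373). Mzb1, a chaperone of antibody secretion, was at 1.03 to 5.66 CPM in Thra1PV/+ and 0.515 to 2.20 CPM in WT. The markers of B cells before the plasma cell stage were uneven. Pax5 was at most at 0.191 CPM in a library, Cr2 at most at 0.0572 and Ms4a1 at most at 0.368 CPM, while Cd79b, the partner of Cd79a, was at 2.0 to 5.76 CPM, the receptor Cd22 at 1.1 to 5.25, the kinase Blk at 0.338 to 2.88, the transcription factor Ebf1 at 10.1 to 43.7 and the adaptor Blnk at 29.5 to 98.0 CPM, genes chosen after their values were seen. Xbp1 and Txndc5, genes of secretory cells with the highest levels on the list, had log2 fold changes of -0.17 (SE 0.43) and 0.15 (SE 0.16).

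Of 7 genes of V(D)J joining and the pre-B cell receptor 2 were tested (Vpreb1 and Vpreb3), with 0 called by edgeR or DESeq2 and 0 at an unadjusted p under 0.05. Rag1 and Rag2, which cut the DNA, were at most at 0.0918 and 0.0191 CPM. Vpreb3 was at 2.24, 0.426, 2.10 and 7.37 CPM in Thra1PV/+ and at 0.305, 0.0903, 0.736 and 1.67 CPM in WT (log2 fold change 2.11, SE 1.01, edgeR adjusted p = 0.563), and Vpreb1 was at 0.458 to 1.32 CPM over the 8 libraries. Of the germinal centre list 6 of 7 were tested and 0 were called by either tool or had an unadjusted p under 0.05, with Bcl6 at a log2 fold change of -0.10 (SE 0.37) and S1pr2 at -0.03 (SE 0.47). Of 10 genes of antibody transport and B cell recruitment 8 were tested and 0 called by either tool, with 1 at an unadjusted p under 0.05, the chemokine Cxcl12 (log2 fold change -2.11, SE 0.91). Pigr was at 600, 2180, 2730 and 2020 CPM in Thra1PV/+ and at 938, 222, 5050 and 3500 CPM in WT, lowest in WT library 2 (log2 fold change -0.37, SE 0.85), and Ccl28, a chemokine that draws IgA plasma cells, had -0.47 (SE 0.70).

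Among the lists of other cells, all 10 T cell markers were tested, with 0 called by edgeR and 1 by DESeq2, which called 2.57% of all genes higher. At an unadjusted p under 0.05, 4 of these markers were higher, against 5.05% of all tested genes. Lck and Cd3g had the highest levels of these. All 7 smooth muscle markers were tested, with 0 called by edgeR, 1 by DESeq2 and 7 lower at an unadjusted p under 0.05, against 4.72% of all tested genes. Of the blood list 5 of 7 were tested and 2 were lower at that threshold, and of the lymph node list Ccl21a was the 1 gene tested (log2 fold change -4.53, SE 1.94, edgeR adjusted p = 0.502, and -0.62 without WT library 1). Neither tool called a gene of the blood list or of the 9 endometrial markers, which had 0 at an unadjusted p under 0.05, and for Ccl21a DESeq2 gave no adjusted p. The part of these cells in the V segment values was not tested.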

How the data were processed

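The 8 stranded mRNA libraries (4 WT and 4 Thra1PV/+ mice, endometrium cut by laser) were sequenced as read pairs. The authors removed adapters and poor bases with Trimmomatic and quantified transcripts with Salmon against mm10 (versions and annotation release not given in the sources used here). They deposited a table of estimated counts, not normalized, and a table of TPM, whose distribution is almost identical from library to library, as after quantile normalization. 1 further TPM column, headed as a WT sample but holding negative values, matched no sample and was left out.

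Members were taken by symbol, and all 348 had the same identifier version in GENCODE M21. Estimated counts were rounded to whole numbers. Genes passed filterByExpr (minimum count 10, minimum total 15), libraries were scaled by TMM, and genotypes were compared with edgeR 4.0.16's quasi-likelihood test in R 4.3.3, with Benjamini-Hochberg adjustment over 18174 genes. A call needed a fold change of at least 2 and an adjusted p of at most 0.1. DESeq2 1.42.0 and limma 3.58.1 on log2(TPM + 1) were alternatives, and the script was tested on simulated data. Use measures were computed per library from counts and have no test. Identity was computed with Biopython 1.88 on the last 280 bases.

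The segments named are the 4 with the largest mean CPM in Ighv and in Igkv and the 2 in Iglv, the leader of each library in each locus, called members and the 3 with the smallest p. From the other lists they are the tested constant region genes, called genes and the 2 of largest mean CPM in each list. Genes beyond this are given as members of counts or were chosen after their values were seen. The members and lists were chosen with earlier results of these data known. Library totals of 48791602 to 59818887 counts set the depth, and intervals are Wilson intervals at 95% for counting error only. Values of some genes on the lists are not reported here.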

Additional observations from a re-analysis of the deposited data

Results flagged for a closer look

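Dixon's test for a sample far from the others of its group of 4 was applied to 116 groups, where chance alone marks about 5.8, and it marked 13. For the V segments as a whole it marked the log2 total CPM of Thra1PV/+ library 2 (4.15 against 7.60 to 8.30 in the other 3), its number of segments with at least 10 counts (29 against 113 to 119), the same number in WT library 2 (83 against 0 to 11), and the effective number of WT library 2 (43.1 against 14.4 to 17.2).

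Of single V segments it marked the log2 CPM of Ighv1-26 in Thra1PV/+ library 2 (-2.82) and those of Ighv1-64 (-1.09), Ighv1-53 (-1.33) and Ighv3-6 (-2.09) in WT library 2, each higher there than in the other WT libraries. Iglc3 in WT library 2 (-1.09) was marked in the same way. The remaining marks were Ighg2b in WT library 3 (-4.07), Txndc5 in Thra1PV/+ library 1 (8.56), Lck in Thra1PV/+ library 4 (3.37) and Ccl21a in WT library 1 (6.09). 9 of the 13 marks fell on WT library 2 or Thra1PV/+ library 2, and the cause was not tested.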

How the results depend on the processing

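The number of called V segments was 0 in the edgeR fit and also with DESeq2's size factors, with library size alone and with replicate number as a block. It was 35 with DESeq2, 1 when a gene needed a single count in any library (0.577% of all genes were called higher), 2 with limma on log2(TPM + 1) (0.801%), 7 on log2(TPM + 0.1) (1.09%) and 25 at an unadjusted p under 0.05, and 0 to 4 when each library was left out in turn. With at least 10 counts required in every library no member was left to test. For the constant region and J chain list 0 became 6 with DESeq2 and 7 at an unadjusted p under 0.05, and 0 to 3 without a library. For the B and plasma cell list 1 became 3 with DESeq2, 7 at an unadjusted p under 0.05, 0 with at least 10 counts in every library, and 0 to 1 without a library. The cause of the gap between edgeR and DESeq2 was not tested.

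The difference of log2 total V CPM (3.94) lay between 3.17 and 4.93 when a library was left out, and at 3.89 to 4.55 under the other settings. The difference in segments with at least 10 counts (68.5, range 60 to 90.2 without a library) became 38.5 with 1 CPM as the threshold. With at least 1 count it was 79.5, and for segments seen at least once among 86 reads it was 12.0. At 874 reads, an alternative chosen after seeing the data, it was -4.30, with WT library 2 as the only WT library that reaches this depth. The difference in effective number (10.9, range 8.13 to 17.7 without a library) was 25.2 as the exponential of Shannon entropy and 2.56 over families. The difference in the leading share (-1.14 points, range -2.28 to -0.237 without a library) was -3.74 for families, -4.16 within Igkv and -4.75 within Ighv.

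Same-numbered libraries of the genotypes had correlations of 0.269, -0.436, 0.340 and -0.159 in their deviations from the group means, so the numbers were not taken to pair animals. With the replicate block 0 V segments and 0 genes of the B and plasma cell list were called, Krt14 and Krt15 had an edgeR adjusted p of 0.157 and 0.107, and 9 members had an unadjusted p under 0.05.

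No called gene named here changed sign. Uncalled log2 fold changes near 0 did when a library was left out: Ighv1-18 ranged from -0.62 to 4.90, Igkv3-2 from -0.72 to 1.11, Ighg2c from -1.18 to 0.14, Vpreb1 from -0.46 to 0.11, S1pr2 from -0.48 to 0.26, Bcl6 from -0.33 to 0.13, Xbp1 from -0.37 to 0.21, Pigr from -0.71 to 0.30, Lck from -0.35 to 0.10, Krt8 from -0.52 to 0.08 and Krt18 from -0.41 to 0.01. The highest value of Ighv1-18 was that without WT library 2. With library size alone Ighv1-18 was -0.05 and S1pr2 0.04, and with the replicate block Pigr was 0.03.

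Depth limits what can be said of use in WT libraries 1, 3 and 4 and Thra1PV/+ library 2, with 86 to 874 V counts that need not be as many molecules.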
